A study of Mus musculus with 15 samples.

Results

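The transcripts described here were lower after 60 and 180 min of serum than after 10 and 30 min in both mouse embryonic stem (ES) cell lines that carry Srf, the wild-type line E14wt and the line E100-/-rescue. They were selected on exactly those values. A gene entered when its log2 intensity, averaged over 60 and 180 min, lay at least 0.8 below its average over 10 and 30 min in both lines (a late minus early change of -0.8 or less). It also had to lie above the intensity floor on at least 4 of 15 arrays. Symbols that start with Rpl, Rps, Itg, Cdh, Col, Lam, Hsp, Dnaj, Krt or Ccn were set aside. Of 8220 genes measured, 6043 were eligible and 82 became members, of 84 that met the thresholds before symbols were set aside. The change in wild-type and rescue cells is therefore a description, and the Srf-null line E100-/-, whose changes were not compared in the choice, gives the other reading. Srf-null arrays entered the normalization and the count of arrays above the floor, and 3 members (Pcsk6, Prr5 and Tinagl1) passed that count only through them.

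Each of the 3 lines was given fetal bovine serum and total RNA was taken at 0, 10, 30, 60 and 180 min, with 1 Affymetrix MGU74A array for each line and time. E14wt is a wild-type ES line. E100-/- is the Srf-null line, and E100-/-rescue is named as its rescue, made in a way the labels do not describe. The labels name no repeat of any line. The p-values therefore rest on the spread between neighbouring time points and do not cover independently made lines. That spread can hold technical differences and also real change between 10 and 30 min or between 60 and 180 min. Such change enlarges the error, so a lack of calls does not show a lack of change. A difference in RNA per cell cannot be told apart from a difference in the share of cells that express a gene.

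Serum response factor (SRF) is a DNA-binding protein that recognises a sequence known as the CArG box. With its cofactors of the TCF family it switches on immediate-early genes when cells meet serum, and with the actin-regulated MRTF cofactors it controls genes of the cytoskeleton. Transcripts that decline after serum are the less studied side of that response: many are made in resting cells and lost as growth signals arrive, through repression, through RNA decay or both.

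No check of the genotypes by the deleted gene was possible, since Srf was matched by 0 probe sets. The ES label was borne out by markers: 10 of 10 ES cell markers lay above the floor on at least 8 arrays, and Pou5f1, the core pluripotency factor, ran from 12562 to 27191 normalized intensity units. Markers listed for other cell types were also read above the floor on at least 8 arrays. They were 8 of 14 fibroblast feeder, 8 of 12 endoderm, 6 of 9 trophoblast, 3 of 5 mesoderm and 3 of 6 neural markers. The share of all genes that pass this bar was not counted, so the markers do not show that such cells were present. Summed feeder marker intensity was 7534 to 10734 in wild-type, 8013 to 11318 in Srf-null and 10946 to 12488 in rescue cells, and the endoderm sum was 5029 to 8750, 5364 to 7039 and 6096 to 8502. The trophoblast sum was 1858 to 6998 in wild-type, 1111 to 2891 in Srf-null and 2608 to 17752 in rescue cells, and the neural sum 1114 to 1937, 930 to 5350 and 1945 to 4704. The mesoderm sum ran from 568 to 1738 over the lines. Never above the floor were Col1a2 of fibroblasts, Foxa2, Hnf4a and Apoa1 of endoderm and Hand1 of trophoblast. Gsc and Mesp1 of mesoderm and Fgf5 of ectoderm were never above it either. The fibroblast markers above it on at least 8 arrays were Col1a1, Col3a1, Dcn, Fn1, Lox, Lum, S100a4 and Vim. Those of endoderm were Afp, Col4a1, Dab2, Gata4, Gata6, Lama1, Sparc and Ttr. Those of trophoblast were Eomes, Esx1, Krt18, Krt8, Plet1 and Tfap2c, those of mesoderm Kdr, Tbx6 and Wnt3 and those of ectoderm Nes, Pax6 and Sox3. Neither the presence of such cells nor their part in the results was tested. Arrays differed in quality before normalization. Their 2% trimmed mean ran from 350 to 1439, and the share of values at or below 0 from 24.9% to 41.6%. From 10 min on that share was 39.0%, 41.6% and 37.1% on the Srf-null arrays of 30, 60 and 180 min. It was 37.4% on the rescue array of 10 min and 26.7% on the Srf-null array of 10 min. The other wild-type and rescue arrays from 10 min on had 24.9% to 27.5%. Line and this share were thus partly confounded. The 3′ to 5′ signal ratio of actin ran from 0.847 to 7.53. The highest actin ratio belonged to wild-type cells at 0 min. No 0 min array enters a late minus early change, and 80 of the 82 members were chosen again without the 0 min arrays.

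Promoter sequence from RefSeq (GRCm38.p6; 250 bases before to 50 after each annotated start) was matched for 63 of the 82 members, which have 89 promoters. The CArG box, the letters SRF reads, was found in 1 of them (1.12%), against 1.63% of all 32851 promoters in the same table and 1.48% of those of eligible genes. That promoter belongs to Fcer2a, which encodes the low-affinity IgE receptor. The letters CACGTG, an E-box read by basic helix-loop-helix factors of the MYC and USF kind, stood in 11 member promoters (12.4%) against 7.15% of all promoters and 10.3% of those of eligible genes. TGACGTCA, the full cAMP response element, stood in 2 (2.25%), between 1.79% of all and 2.87% of eligible genes' promoters. TGANTCA, the AP-1 site, stood in 8 (8.99%, against 7.81% of all and 5.75% of eligible). TATAAA was present in 13 (14.6%, against 13.6% and 8.78%) and TGTTTAC, a forkhead motif, in 5 (5.62%, against 3.65% and 2.55%). Both strands were searched, and a CArG box can contain TATAAA, which the one printed here does not. A match describes letters and does not show a bound site.

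The next lines show 3 of these promoters, each as 130 bases that end at the annotated start, because they hold the only CArG box, the most E-boxes and a full cAMP response element among the members; capitals mark the motif. They are Fcer2a at chr8:3694175-3694304 (minus strand), Dvl2 at chr11:70000462-70000591 (plus strand, 3 copies of CACGTG) and Ttc1 at chr11:43748009-43748138 (minus strand).
Fcer2a: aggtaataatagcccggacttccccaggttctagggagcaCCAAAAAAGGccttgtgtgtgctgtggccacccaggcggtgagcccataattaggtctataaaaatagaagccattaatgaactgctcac
Dvl2: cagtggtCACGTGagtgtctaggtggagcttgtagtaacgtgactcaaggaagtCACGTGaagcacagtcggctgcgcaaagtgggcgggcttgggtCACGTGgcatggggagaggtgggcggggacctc
Ttc1: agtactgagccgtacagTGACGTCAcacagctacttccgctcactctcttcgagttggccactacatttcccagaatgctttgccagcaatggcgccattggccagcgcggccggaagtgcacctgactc

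Among the 82 members the late minus early change had a median of -1.19 in wild-type cells (-3.09 to -0.81) and of -1.18 in rescue cells (-3.02 to -0.80). The eligible genes had medians of -0.04 and -0.01. By the same threshold 399 eligible genes (6.6%) were lower in wild-type cells and 363 (6.01%) in rescue cells, so the members are 20.6% of the former and 22.6% of the latter. Just inside the threshold lay Myd88, the adaptor of Toll-like receptors (-1.08 and -0.80), Azgp1, a secreted glycoprotein (-0.81 and -0.85), and Abcg1, a cholesterol exporter (-1.65 and -0.81). Just outside lay Sod3, the extracellular superoxide dismutase (-2.13 and -0.78), Fam104a (-1.0 and -0.78) and Ythdc1, a reader of methylated RNA (-0.77 and -1.26).

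In Srf-null cells the members did not share one direction. Their median change there was -0.11, with quartiles of -0.77 and 0.31, against -0.01 for eligible genes, whose quartiles were -0.27 and 0.23. A change of -0.8 or less was seen for 20 members (24.4%), against 7.81% of eligible genes, and a change of 0.8 or more for 12 (14.6%), against 7.13%. The other 50 lay between. Among the 79 members that passed the filter on wild-type and rescue arrays alone, 19 were at -0.8 or less. Of the 3 that passed only through Srf-null arrays, Prr5 (-0.85) is among the 20 and Pcsk6 (1.11) among the 12. The third, Tinagl1 (-0.43), lay between. Both late arrays were below both early arrays for 17 members (20.7%), where the share among eligible genes was 15.5%, and above them for 9 (11%), where it was 14.2%. With Prr5, Pcsk6 and Tinagl1 included, shares of large negative and large positive changes were both above those of all eligible genes. The members' median lay close to that of all.

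**Figure D1:**
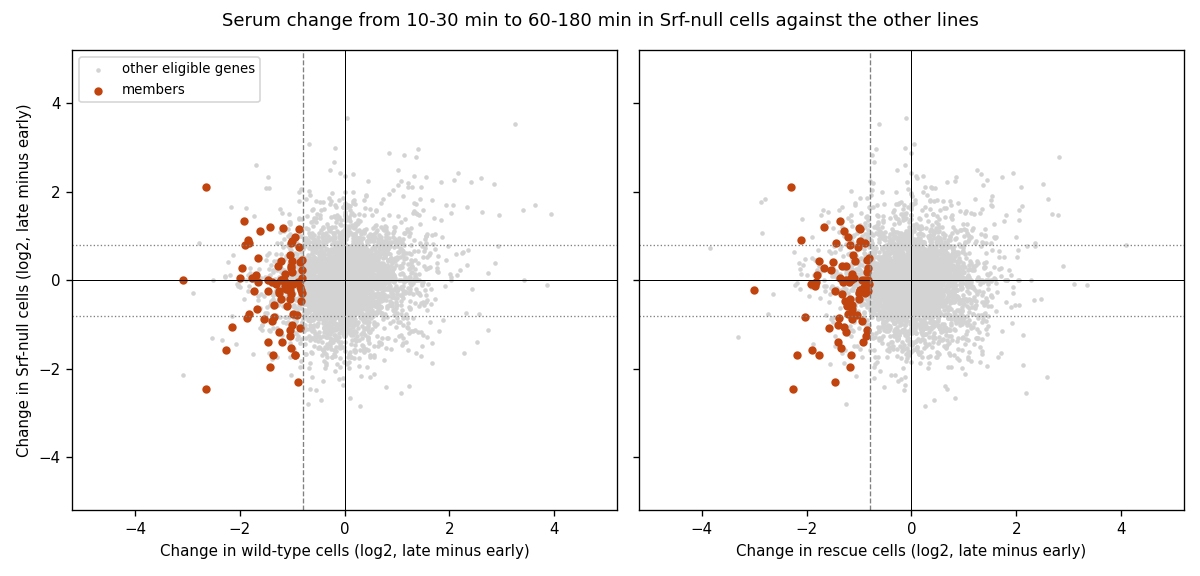
Late minus early change (log2, 60 and 180 min against 10 and 30 min) in Srf-null cells on the vertical axis against wild-type cells (left) and rescue cells (right), for eligible genes (grey) and the 82 members (orange), with dashed lines at the threshold of -0.8 and dotted lines at -0.8 and 0.8 in Srf-null cells. The members lie left of the dashed line in both panels, as the rule requires, and spread from -2.45 to 2.11 in Srf-null cells.

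Tested with limma, 0 members had a Benjamini-Hochberg adjusted p under 0.05 for the change in Srf-null cells. Over the 9558 probe sets tested, 0 were called lower (0%) and 7 higher (0.0732%). At an unadjusted p under 0.05 there were 3 members (3.66%), Rhbdl3, Cd93 and Zfp637, each lower late, against 5.7% of probe sets. The lowest adjusted p of a member was 0.114, for Rhbdl3. Without the Srf-null array of 180 min Rhbdl3 passed (adjusted p = 0.039 by limma), with the lone 60 min array taken to vary like the other groups.

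The members are dim transcripts. Their median normalized intensity was 266, against 729 for eligible genes, and 76 of the 82 lay below the latter. Large changes in Srf-null cells were more frequent among dim genes in general: 11.4% of eligible genes in quartile 1 of signal, the dimmest, and 16.5% in quartile 2 had a change of -0.8 or less, but 3.18% and 0.199% in quartiles 3 and 4. Among members it was 11 of 33 (33.3%) in quartile 1, 7 of 43 (16.3%) in quartile 2 and 2 of 6 in quartile 3, and quartile 4 held 0 members. A change of 0.8 or more was seen for 4 of the members in quartile 1 (12.1%, against 14.8% of eligible genes), 7 in quartile 2 (16.3%, against 10.7%) and 1 in quartile 3. The part of signal in the Srf-null readings was not tested beyond these shares.

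How often members sat at the floor changed with time. The floor is the 40th percentile of all normalized values, 84.98 intensity units, below which no order was read. In wild-type cells 21, 2, 6, 20 and 51 members were at the floor at 0, 10, 30, 60 and 180 min. In rescue cells these numbers were 15, 7, 2, 31 and 30, and in Srf-null cells 32, 12, 9, 22 and 14. Among eligible genes the share at the floor was 10.8% to 16.7% on every array. The low share at 10 and 30 min and the high share later in wild-type and rescue cells follow from the rule. The wild-type array of 180 min, where 62.2% of members were at the floor, was the dimmer of the late wild-type arrays before normalization, with a trimmed mean of 452 against 1439 at 60 min, and its Gapdh 3′ to 5′ ratio was 1.23 against 0.683. Without that array 35 of the 82 members still met the rule. Before normalization the 18S control read 2318, 24309, 2074 and 29326 units at 10, 30, 60 and 180 min in wild-type cells. In rescue cells it read 877, 498, 2082 and 21819, and in Srf-null cells 18797.5, 3133, 24002 and 5562. The part of the wild-type array of 180 min and of the 18S signal in the choice of members was not tested further.

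**Figure D2:**
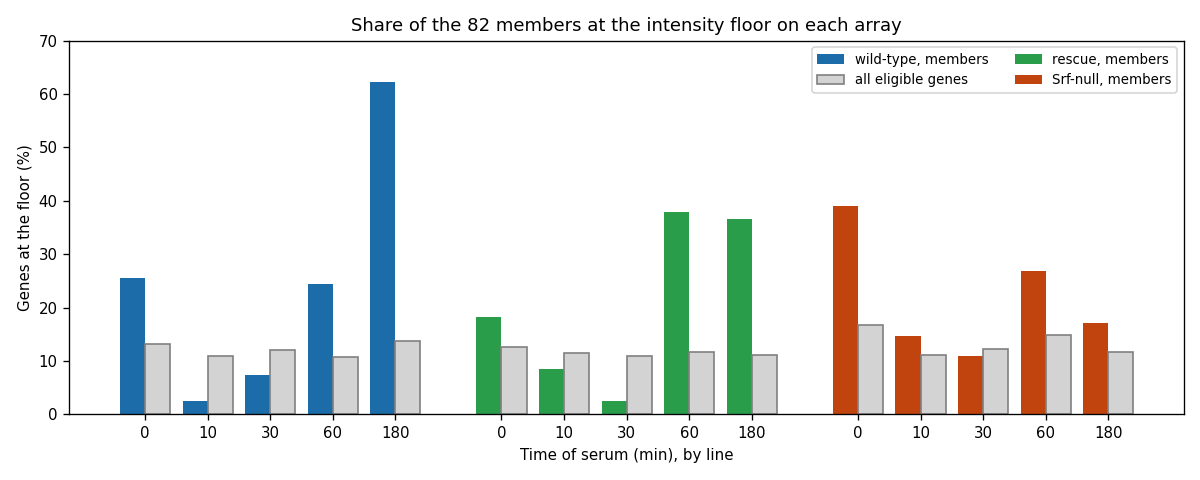
Percentage of the 82 members (coloured bars) and of the 6043 eligible genes (grey bars) at the intensity floor on each array, by line and time of serum in min. The tallest bar is wild-type at 180 min (62.2%), and eligible genes stay between 10.8% and 16.7%.

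Of the members, 59 had a late floor value in wild-type cells and 45 in rescue cells, 35 in both. Of these, 51 in wild-type and 36 in rescue cells had both early arrays above the floor, which makes the change a lower limit in size. The other 8 and 9 had an early floor value too, and their change is not a limit in either direction. All 4 late wild-type and rescue arrays were at the floor for 6 members. The late arrays did not overlap the early ones, being lower, for 43 members in wild-type cells, 58 in rescue cells and 30 in both lines. Among these 30 the Srf-null median was -0.13, with 10 at -0.8 or less and 8 at 0.8 or more. In wild-type cells 26 members were at least 0.8 below their early mean at both late times, 9 at 60 min alone and 47 at 180 min alone. In rescue cells the numbers were 37, 22 and 23, and 32 members were in the same class in both lines.

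The 0 min arrays, which the rule did not compare, give the level before serum. The early mean they are set against is one the rule chose to be high, so a lower 0 min value is in part fixed by the choice. In wild-type cells the 0 min value was within 0.8 of the early mean for 39 of the 82 members. It was at least 0.8 below for 31 and at least 0.8 above for 12, where eligible genes had shares of 19.8% and 17.7%. In rescue cells these numbers were 45, 30 and 7, and eligible genes had 13.7% below and 13.4% above. For 12 of the 82 members 0 min was at least 0.8 below the early mean in both lines, a larger share than the 4% of eligible genes. For 33 members it was that low in neither line. The actin 3′ to 5′ ratio was 7.53 on the wild-type, 4.22 on the rescue and 2.94 on the Srf-null array of 0 min, and its part in these counts was not tested. In Srf-null cells 39 members were at least 0.8 below at 0 min, beside 20.3% of eligible genes, with a median of -0.51 against -0.08 for eligible genes, and 32 members were at the floor there.

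**Figure D3:**
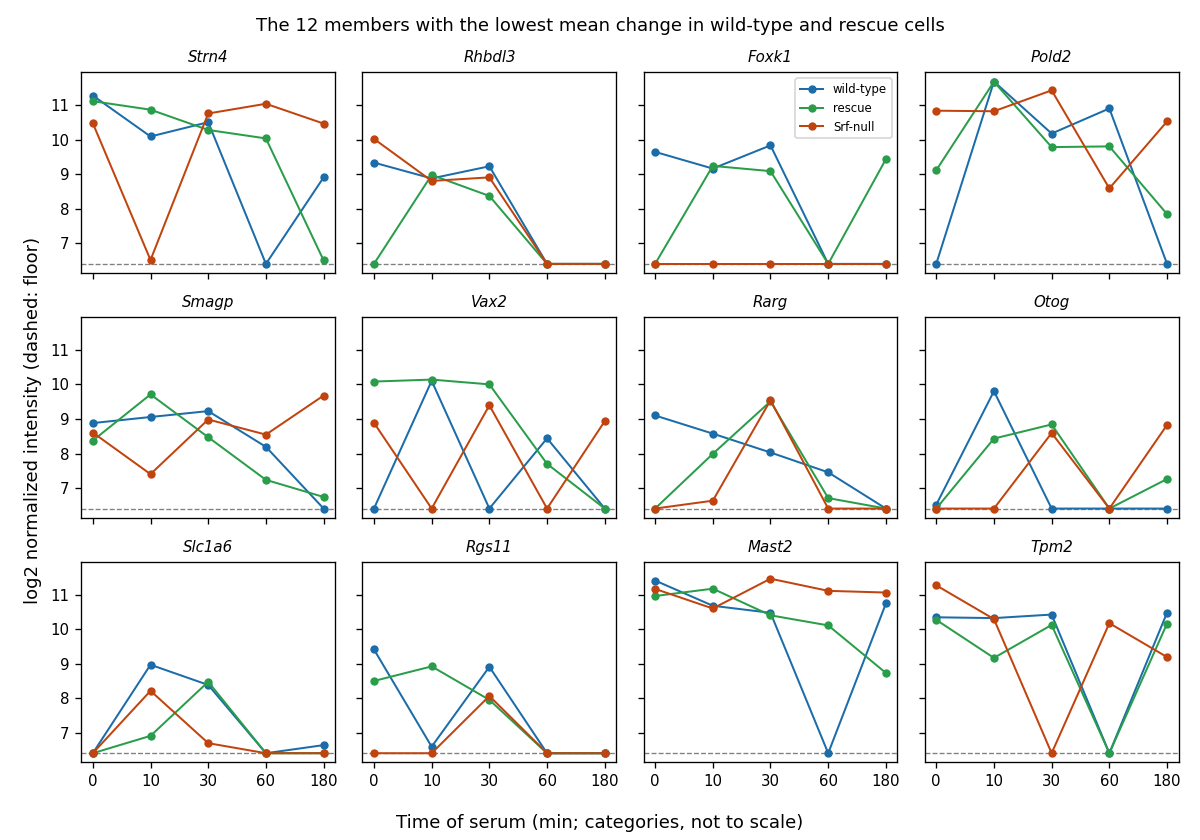
Log2 normalized intensity of the 12 members with the lowest mean change in wild-type and rescue cells, at each time of serum (min, as categories) in wild-type (blue), rescue (green) and Srf-null (orange) cells, with the floor of 6.41 dashed and 1 array per point. Rhbdl3 is at the floor at 60 and 180 min in each line, Foxk1 is at the floor throughout in Srf-null cells, and Strn4 is at its lowest at 10 min there.

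Among 14 signalling and scaffold proteins (roles were assigned after the members were known), 4 had a change of -0.8 or less in Srf-null cells and 3 of 0.8 or more. Strn4, a striatin scaffold that brings a phosphatase to its kinases, read 2488, 1094, 1457, the floor and 482 at 0, 10, 30, 60 and 180 min in wild-type cells, 2221, 1872, 1247, 1052 and 91.1 in rescue cells and 1429, 91.9, 1735, 2108 and 1417 in Srf-null cells. Early and late arrays did not overlap in wild-type or rescue cells, and in Srf-null cells the single low value at 10 min set the change. Its change was 2.11 ± 1.52 in Srf-null cells (estimate ± SE from limma, adjusted p = 0.946), the highest of the members.

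Mast2, a microtubule-associated kinase, read 2713, 1635, 1419, the floor and 1711 in wild-type cells, 1988, 2303, 1350, 1103 and 425 in rescue cells and 2292, 1548, 2813, 2205 and 2131 in Srf-null cells. Its wild-type change rested on the single floor value at 60 min, since 180 min was above both early arrays. The Srf-null arrays all lay between 1548 and 2813 units, with a change of 0.06 ± 1.16 (adjusted p = 1.0).

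Wnt signalling was represented by Dvl2, a dishevelled protein that relays the Wnt signal from its receptor, and by Frat1, which binds the kinase GSK3 and promotes the same pathway. Dvl2 read the floor, 1276, 3319, 1078 and 466 in wild-type cells, 1218, 1401, 2876, 1218 and 678 in rescue cells and the floor, 3059, 1108, 801 and 1278 in Srf-null cells. Its late values lay below the early ones in wild-type and rescue cells, while in Srf-null cells the 180 min value lay between both early ones and the change was -0.86 ± 0.71 (adjusted p = 0.950).

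Frat1 read 293, 192, 279, 171 and the floor in wild-type cells, the floor, 818, 129, 250 and the floor in rescue cells and 554, 1056, 969, 615 and 160 in Srf-null cells. In Srf-null cells the late arrays lay below the early ones, as in wild-type cells, and in rescue cells they overlapped. The change there was -1.69 ± 1.01 (adjusted p = 0.935), and the Srf-null level over 10 to 180 min was 1.56 ± 0.62 above that of the other lines (adjusted p = 0.292).

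Rgs11, which speeds the shut-off of G proteins, was at the floor on both late arrays of every line. Its change was -1.34 in wild-type, -2.03 in rescue and -0.83 ± 0.78 in Srf-null cells (adjusted p = 0.971), where 30 min alone, at 268 units, stood above the floor. Map2k6, a kinase that activates p38, read 170, 344, 484, 304 and 102 in wild-type cells, 245, 454, 403, 220 and 264 in rescue cells and 243, 337, 353, 394 and 303 in Srf-null cells. It is 1 of 13 members with no floor value from 10 min on in wild-type and rescue cells. Early and late did not overlap in either of them, and the Srf-null change was 0.00 ± 0.55 (adjusted p = 1.0).

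Prkce, protein kinase C epsilon, read 251, 152, 128 and the floor from 10 to 180 min in wild-type cells, 240, 227, the floor and 151 in rescue cells and 172, 223, 143 and 91.3 in Srf-null cells. All 3 lines had both late arrays below both early ones, and each was at the floor at 0 min. The Srf-null change was -0.78 ± 0.41 (adjusted p = 0.923).

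Gas6, a ligand of the TAM receptors first found in growth-arrested fibroblasts, was the only member on a list of 21 cell cycle inhibitor and quiescence genes. It read 147, 246, 203, 178 and the floor in wild-type cells, 116, 415, 247, 162 and 161 in rescue cells and the floor, the floor, 286, 489 and 251 in Srf-null cells. The late arrays lay below the early ones in wild-type and rescue cells, and the Srf-null change was 1.17 ± 0.66 (adjusted p = 0.923), with early and late overlapping. The 0 min values were not the highest in either line with Srf.

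Calm2 and Epha8 were picked here after their values were seen, as members without floor values that are brighter than the members' median. The mean log2 intensity of Calm2, 9.18, was still below the median of 9.51 for eligible genes. Calm2, a calmodulin gene, read 178, 925, 592, 721 and 101 in wild-type cells, 618, 904, 792, 585 and 328 in rescue cells and 446, 1125, 1105, 971 and 915 in Srf-null cells. Its lowest value in each line with Srf was at 180 min, and in wild-type cells 60 min lay between both early values. In Srf-null cells, too, both late arrays lay below both early ones, within a range of 915 to 1125. Epha8, an ephrin receptor kinase, read 1031, 1172, 265 and 397 from 10 to 180 min in wild-type cells, 1221, 1487, 1217 and 301 in rescue cells and 1099, 1350, 1217 and 1298 in Srf-null cells. The Srf-null changes were -0.24 ± 0.79 and 0.04 ± 0.56 (adjusted p = 1.0 for each).

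Transcription factors numbered 7, of which 3 had a change of -0.8 or less in Srf-null cells and 0 of 0.8 or more. Foxk1, a forkhead factor that acts mainly as a repressor, read 803, 575, 915, the floor and the floor in wild-type cells and the floor, 606, 546, the floor and 694 in rescue cells. It was at the floor on all 5 Srf-null arrays, so no change could be read there. Its Srf-null level was the lowest of the members relative to the other lines, at -1.84 ± 0.51 (adjusted p = 0.133 by limma). Since 3 of the 8 wild-type and rescue arrays were at the floor too, this is not a limit in either direction. Without the rescue array of 60 min the difference was -2.27, and without that of 180 min it was -1.48. The Srf-null arrays and both late wild-type arrays held the same floor value, which adds no spread, so the error and p may be too small.

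Rarg, the gamma retinoic acid receptor, read 550, 382, 262, 176 and the floor in wild-type cells, the floor, 255, 729, 105 and the floor in rescue cells and the floor, 99.5, 746, the floor and the floor in Srf-null cells. The same order held in each line, both late arrays below both early ones. Srf-null cells had a change of -1.68 ± 0.91 (adjusted p = 0.923), of the size seen in wild-type (-1.37) and rescue (-2.19) cells.

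Zfp637, a zinc finger protein, was 1 of the 3 members with an unadjusted p under 0.05. It read the floor, 589, 584, 568 and the floor in wild-type cells, the floor, 252, 394, the floor and 230 in rescue cells and the floor, 274, 397, the floor and the floor in Srf-null cells. Every line was at the floor at 0 min and each had its late arrays below its early ones. In Srf-null cells the change was -1.96 ± 0.85 (adjusted p = 0.872).

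Vax2, a homeobox factor of the ventral eye, was at the floor on 3 of 5 wild-type arrays and on 2 of 5 Srf-null arrays. Its wild-type change of -0.83 came from 1101 units at 10 min beside the floor at 30 min, so early and late overlapped there. The rescue change was -3.02, the lowest of that line, and the Srf-null change -0.23 ± 1.5 (adjusted p = 1.0). Zfp787, another zinc finger protein, had a change of -1.46 in wild-type, -1.15 in rescue and 0.02 ± 0.93 in Srf-null cells (adjusted p = 1.0).

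The 5 members with roles in DNA replication and chromosome segregation had a median change of -1.82 in wild-type, -1.23 in rescue and -0.59 in Srf-null cells. Pold2, the second subunit of DNA polymerase delta, read the floor, 3294, 1160.3, 1919 and the floor in wild-type cells, 556, 3282, 884, 897 and 231 in rescue cells and 1835, 1815, 2759, 386 and 1480 in Srf-null cells. In Srf-null cells both late arrays were below both early ones, and in the other lines 60 min overlapped the early values. Its Srf-null change was -1.57 ± 1.45 (adjusted p = 0.967), an error nearly as large as the change.

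Prim2, the large subunit of DNA primase, was taken after its values were seen because it holds 1 direction in every line without a floor value. It read 119, 665, 802, 579 and 199 in wild-type cells, 691, 763, 790.0, 339 and 325 in rescue cells and 429, 1069, 785, 593 and 624 in Srf-null cells. Both late arrays lay below both early ones in each line. The change in Srf-null cells, -0.59 ± 0.49, stood beside -1.10 in wild-type and -1.23 in rescue cells, and its adjusted p was 0.950.

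Mms19, which loads iron-sulfur clusters onto DNA repair and replication enzymes, went the other way in Srf-null cells. It read 833, 1036, 745, 725 and the floor in wild-type cells, 875, 1044, 1377, 318 and 622 in rescue cells and 229, 1058, 583, 1616 and 1236 in Srf-null cells. Late arrays were below early ones in wild-type and rescue cells and above them in Srf-null cells, where the change was 0.85 ± 0.87 (adjusted p = 0.982).

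The cytoskeleton was represented by 2 members. Tpm2, beta-tropomyosin, which winds along actin filaments, was the only member among 20 genes tested from a list of actin-related SRF targets. It read 1298, 1277, 1370, the floor and 1425 in wild-type cells, 1233, 575, 1113, the floor and 1144 in rescue cells and 2463, 1252, the floor, 1153 and 584 in Srf-null cells. Each line had 1 floor value between values of 575 or more, at 60 min in the lines with Srf and at 30 min in Srf-null cells, and this value alone set the change (1.33 ± 1.71 in Srf-null cells, adjusted p = 1.0). The other probe set of Tpm2 read 365, 485, 681 and 917 from 10 to 180 min in wild-type cells and 608, 776, 406 and 724 in rescue cells, with changes of 0.91 and -0.34. In Srf-null cells it read 509, 610, 249 and 374, a change of -0.87, opposite in sign to that of the member probe set. Prph, peripherin, an intermediate filament of neurons, was at the floor at 180 min in wild-type and rescue cells and had a Srf-null change of 0.15 ± 1.18 (adjusted p = 1.0).

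Immune and blood-cell proteins made up 11 members, with 3 at -0.8 or less and 1 at 0.8 or more in Srf-null cells. Cd93, a receptor of endothelial and myeloid cells, read 996, 131, 342, 152 and the floor in wild-type cells, 420, 477, 590, 121 and 309 in rescue cells and 1050, 382, 452, the floor and the floor in Srf-null cells. Late arrays were lower in rescue and Srf-null cells, and in wild-type cells 60 min overlapped 10 min. The Srf-null change was -2.29 ± 0.64, beside -0.90 in wild-type and -1.46 in rescue cells, with an unadjusted p of 0.00686 and an adjusted p of 0.486 by limma.

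Fcer2a, whose promoter holds the CArG box printed above, read 2148, 404, 954, the floor and 1087 in wild-type cells, 805, 777, 784, 489 and 200 in rescue cells and the floor, 1101, 805, 1088 and 531 in Srf-null cells. Its wild-type change came from the single floor value at 60 min. The Srf-null change was -0.31 ± 1.08 (adjusted p = 1.0), with early and late overlapping, and Fcer2a was described here for its promoter, after its values were seen.

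Myd88 had a Srf-null change of -0.07 ± 0.58 (adjusted p = 1.0). Nlrx1, a mitochondrial member of the NOD-like receptors, had changes of -1.38 in wild-type, -0.94 in rescue and -0.91 ± 0.94 in Srf-null cells (adjusted p = 0.982). Vcam1, a leukocyte adhesion molecule, had -1.16, -0.89 and 0.01 ± 0.56 (adjusted p = 1.0), and read at most 291 units on any array. Gp9, a platelet glycoprotein picked after its values were seen, read 719, 811, 932 and 549 from 10 to 180 min in Srf-null cells, against 247, 457, 335 and the floor in wild-type cells and 535, 464, 203 and the floor in rescue cells. From 10 to 180 min every Srf-null value lay above every wild-type and rescue value, and the level difference was 1.58 ± 0.45 (adjusted p = 0.147 by limma). At 0 min the order was the other way: Srf-null cells were at the floor, wild-type cells read 377 and rescue cells 839. With the floor at the 50th percentile Gp9 and Nynrin were called higher.

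Metabolic and modifying enzymes numbered 12, with 3 at -0.8 or less and 1 at 0.8 or more in Srf-null cells. Cryz, zeta-crystallin, a quinone reductase, read the floor, 320.0, 491, 190 and 114 in wild-type cells, 1094, 423, 175, the floor and the floor in rescue cells and 122, 220, 354, 989 and 420 in Srf-null cells. Late values were below early ones in wild-type and rescue cells and above them in Srf-null cells. The Srf-null change was 1.21 ± 0.63 (adjusted p = 0.923), and its level there was 1.15 ± 0.39 higher (unadjusted p = 0.0175, adjusted p = 0.213).

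Ids, a lysosomal sulfatase, had changes of -0.89, -1.31 and -0.04 ± 1.5 in wild-type, rescue and Srf-null cells (adjusted p = 1.0). Ntan1, an amidase of the N-end rule pathway, had -1.35, -1.14 and -0.56 ± 0.85 (adjusted p = 1.0). Both were named because they have further probe sets on the array.

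Transporters and channels (6 members) and secreted, matrix and protease-like proteins (8 members) had Srf-null medians of 0.19 and -0.09. Rhbdl3, a rhomboid-family membrane protein, read 648, 472, 602, the floor and the floor in wild-type cells, the floor, 506, 332, the floor and the floor in rescue cells and 1043, 449, 482, the floor and the floor in Srf-null cells. It was on the same side in all 3 lines: well above the floor at 10 and 30 min and at it at 60 and 180 min. The changes of -2.65, -2.27 and -2.45 ± 0.38 are lower limits in size, the last with an unadjusted p of 0.000187 by limma. Its late arrays held the same floor value in each line, which adds no spread, so the error and p may be too small.

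Slc1a6, a glutamate transporter of cerebellar neurons, had changes of -2.15 in wild-type, -1.28 in rescue and -1.05 ± 0.59 in Srf-null cells (adjusted p = 0.923). It was at the floor at 0 and 60 min in each line and peaked at 10 or 30 min. Otog, otogelin of the inner ear, was at the floor on 3 of 5 arrays in wild-type and Srf-null cells and had -1.70, -1.80 and 0.12 ± 1.21 (adjusted p = 1.0).

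Mfap2, a component of extracellular microfibrils, read 947, 400.3, 883, 154 and 451 in wild-type cells, 419, 226, 134, the floor and 89.6 in rescue cells and 269, 143, the floor, 154 and 412 in Srf-null cells. Late values lay above early ones in Srf-null cells, below them in rescue cells, and overlapped them in wild-type cells. Its Srf-null change was 1.19 ± 0.73 (adjusted p = 0.935). Azgp1 and Abcg1 had 0.46 ± 0.71 and 0.51 ± 0.80.

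The 6 members of trafficking and protein turnover had a Srf-null median of -0.01. Snx12, a sorting nexin of endosomes, was the lowest of them there (-1.18 ± 1.04, adjusted p = 0.966), after -1.26 in both wild-type and rescue cells. The 4 RNA-binding and RNA-processing members had a Srf-null median of -0.91, with 2 at -0.8 or less. Ddx25, an RNA helicase of germ cells, had -1.25 in wild-type, -1.0 in rescue and -0.29 ± 0.73 in Srf-null cells, with both late Srf-null arrays below both early ones (adjusted p = 1.0).

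For 7 members no role was assigned. Ttc1, whose promoter is printed above, read 213, 597, 340, 169 and the floor in wild-type cells, 1408, 1042, 610, 208 and 609 in rescue cells and 660, 314, 700, 835 and 801 in Srf-null cells. Its late arrays were below the early ones in the lines with Srf and above them in Srf-null cells (0.80 ± 0.67, adjusted p = 0.950). Smagp, a small membrane glycoprotein, had changes of -1.84, -2.10 and 0.92 ± 0.81 (adjusted p = 0.966), and its highest Srf-null value was 820 at 180 min, when wild-type cells were at the floor.

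Of 13 members with another probe set on the array, 5 had one that was above the floor often enough to be read, and 0 of these 5 met the threshold in both lines. For Map2k6 the other probe set gave -0.27 in wild-type, -0.27 in rescue and 1.11 in Srf-null cells. For Mms19 it gave -0.01, -0.99 and 1.41, and for Nlrx1 1.54, 0.29 and 0.00. That of Ids never left the floor in rescue or Srf-null cells. Another 8 members, Ddx25, Dvl2, Ntan1, Prkce, Prph, Snx12, Vcam1 and Zfp787, had only further probe sets above the floor on fewer than 4 arrays. The largest changes among these were -1.73 in rescue cells for Snx12 and -0.83 in wild-type cells for Zfp787. Among the members' own probe sets, 3 are of the kind that can detect related family members, those of Tpm2, H2-T18 and Prph, so their signal may be shared. Those of Pold2 and Nlrx1 carry the suffix _r_at and those of Ids and Vcam1 the suffix _g_at, and their specificity was not examined.

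The same threshold applied to other pairs of lines gives a measure of how often 2 lines share a low late reading. Wild-type and Srf-null cells shared 71 genes, and Srf-null and rescue cells 58, against 82 for wild-type and rescue cells. The overlap was 17.8% and 15% of the respective lists for the first pair, and 12.3% and 16% for the second. In all 3 lines 20 genes met it. These same 20 genes are 24.4% of the 82 members, 28.2% of the 71 and 34.5% of the 58. The shares at -0.8 or less in the line that was not used therefore differ only through the sizes of the sets. Among eligible genes 7.81%, 6.01% and 6.6% had such a change in that line. A change of 0.8 or more there was seen for 14.6%, 14.1% and 13.8%, against 7.13%, 6.75% and 6.49% of eligible genes. The medians in that line were -0.11, 0.06 and -0.33. These 3 sets share arrays and genes, and their differences were not tested. The 20 genes in all lines include Rhbdl3, Pold2, Rarg, Slc1a6, Rgs11, Dvl2, Zfp637, Snx12, Cd93, Nlrx1 and Frat1.

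**Figure D4:**
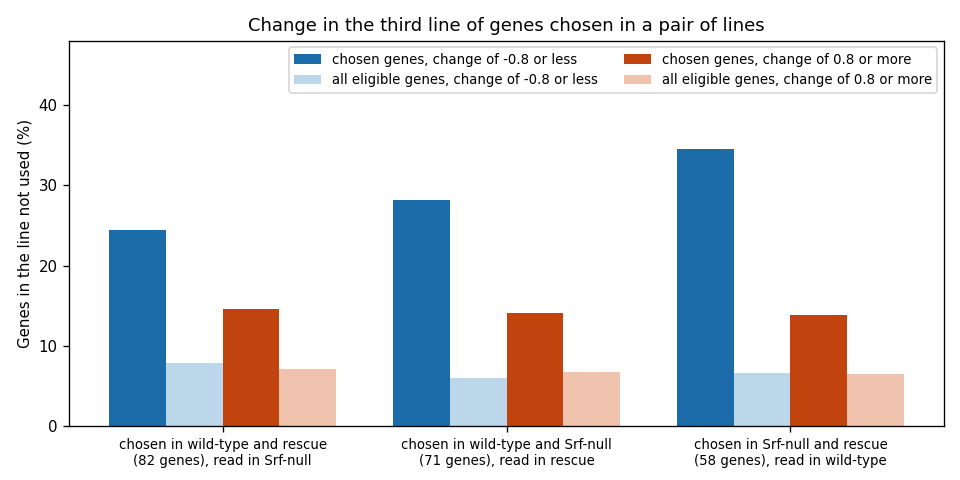
For genes chosen by a change of -0.8 or less in each pair of lines (82, 71 and 58 genes), the percentage with a change of -0.8 or less (blue) or 0.8 or more (orange) in the line that was not used, beside the same percentage of all 6043 eligible genes (pale bars). The blue bars run from 24.4% to 34.5% and the orange bars from 13.8% to 14.6%. Each blue bar counts the same 20 genes, so the blue bars differ only through the sizes of the sets.

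The level of the members, rather than their change, was compared over 10 to 180 min between Srf-null cells and the mean of the other lines. The median difference was 0.27, against 0.02 for eligible genes, and 55 members (67.1%) were above 0, against 52.4%. These values include Pcsk6, Prr5 and Tinagl1, which passed the count of arrays above the floor only through Srf-null arrays. The level of these members in Srf-null cells was thus part of their choice. Pcsk6 had the highest difference of all members (1.78), Tinagl1 also lay above 0 and Prr5 lay below it. The comparison was not repeated without them. The sign of the members' median turned with scaling to a common array median (-0.19) and without normalization (-0.04), but all probe sets shifted too, to -0.27 and -0.13. By limma 0 members were called, while 79 probe sets (0.827%) were lower and 84 (0.879%) higher in Srf-null cells than in both lines. With scaling to a common median that split was 71 lower and 10 higher. With the time point as a block, 63 were lower and 48 higher, again with 0 members, and the lowest adjusted p of a member was 0.11, for Gp9. At an unadjusted p under 0.05 there were 10 members (12.2%), 8 higher and 2 lower, against 14.8% of probe sets. The rule asked for late values below early ones in wild-type and rescue cells and set no change for Srf-null cells. Neither the early nor the late part of this comparison is therefore free of the choice of members.

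The members are 1.36% of eligible genes, so lists of 10 to 23 tested genes can be read only for which members they hold. Gas6 and Tpm2 were the only members on any of the 11 lists. The list of 31 FOXO-linked and growth-factor-repressed genes had 22 tested and 0 members, with medians of 0.03 in wild-type, 0.20 in rescue and 0.08 in Srf-null cells. Cholesterol synthesis and uptake (14 tested), the ATF4 amino acid response (13), pluripotency (23), G2 and mitosis (16), ubiquitin and proteolysis (10), respiratory chain (19) and RNA splicing (19) held 0 members each. Of the 22 immediate-early genes tested 0 were members, with medians of 1.27 in wild-type, 0.89 in rescue and 0.39 in Srf-null cells. In Srf-null cells 0 genes of any list were called for the change. For the level, Srf-null cells were called lower for 7 of 20 actin genes and for 3 of 22 immediate-early genes, Atf3, Egr1 and Fosb. Among pluripotency genes 5 were called higher and 1 lower, and on the FOXO-linked list Gadd45a was called higher.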

How the data were processed

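RNA was measured on 15 Affymetrix MGU74A arrays. The deposited table holds one intensity per probe set on a linear scale, with values below 0; how the authors summarised, background-corrected and scaled it is not given in the sources used here. Intensities of 12654 probe sets (66 controls) were quantile-normalized, set to a floor at the 40th percentile and taken to log2. Of the probe sets, 10298 carried 1 gene symbol in the platform annotation, 363 several and 1993 none; each gene was read by its brightest probe set. In R 4.3.3, limma 3.58.1 (lmFit, then trended eBayes, 2-sided) fitted 1 mean per line and phase (0, 10 to 30, 60 to 180 min; 6 residual degrees of freedom) to 9558 probe sets above the floor on 2 or more arrays, with Benjamini-Hochberg adjustment over all of them. The script was tested on simulated data. A level call needed the same direction against each line. The number of arrays limits the precision, and a change to the floor is a lower limit in size only where the other phase holds no floor value. Arrays of the same line and phase that are all at the floor add no spread, which can make errors and p-values too small.

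Named genes were the 12 members with the lowest mean change over wild-type and rescue cells, members called by limma, the 4 lowest and 4 highest in Srf-null cells, members on a list, 3 genes on each side of the threshold and members with another probe set. The members, lists and marker sets were chosen with earlier results of these data known. Other scalings, floors, filters, phases, covariates and omitted arrays were tried.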

Additional observations from a re-analysis of the deposited data

Results flagged for a closer look

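Both late arrays lay below both early arrays in wild-type and in rescue cells for 30 members. For 4 of these 30 they lay above them in Srf-null cells. Among eligible genes 14.2% had both late arrays above both early ones in Srf-null cells, so 4 is near the share of all genes. The Srf-null change was 0.85 for Mms19, 1.21 for Cryz, 0.80 for Ttc1 and 0.58 for Nynrin. The difference between lines was not tested for any of them, since the members were chosen on the direction in the lines that carry Srf. The other readable probe set of Mms19 gave 1.41 in Srf-null cells and -0.01 in wild-type cells.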

How the results depend on the processing

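Membership moved with the processing. The rule gave 82 genes, but 45 with scaling to a common median, 46 without normalization, 22 with the floor at the 50th percentile, 41 with it at the 45th (added after seeing the data) and 162 with 180 min as the late phase. Of the 82 members these settings kept 40, 35, 21, 40 and 56, and an early phase with 0 min kept 41. Leaving out 1 array gave 60 to 131 genes and kept 35 to 81 members, fewest without wild-type 180 min. A floor at the 30th percentile lay below 0 (-10.9) and was not run.

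For the change in Srf-null cells, limma called 7 probe sets. It called 0 with common-median scaling, without normalization, with 4 arrays above the floor, with the share of values at or below 0 or the 18S control as covariate, and without 0 min arrays. It called 3 and 4 with the floor at the 50th and 45th percentile, 18 without a filter, 4 with 0 min in the early phase and 112 with 180 min as the late phase. Leaving out 1 array gave 0 to 217, and 0 to 1 members, the 1 being Rhbdl3. Members at -0.8 or less numbered 8 and 11 with the higher floors and 13 with 0 min in the early phase, against 20. The members' median change, -0.11, turned to 0.04 in that last setting and to 0.01 without Srf-null 30 min. Members at 0.8 or more numbered 5 with common-median scaling, 6 without normalization and with the 50th percentile floor and 7 with the share covariate, against 12, and 18 without Srf-null 30 min.

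For the level, calls higher in Srf-null cells went from 84 to 10 with common-median scaling, 1 without normalization, 0 with the share covariate, 1 with 0 min included and 48 with the time point as a block (added after seeing the data). Lower calls went from 79 to 2 without normalization, 2 with the share covariate and 1 with 0 min included. Leaving out 1 array gave 35 to 223 higher and 29 to 182 lower. Members called higher were 2 with the 50th percentile floor (Gp9, Nynrin) and 0 to 1 with 1 array left out (Calm2, without wild-type 60 min). Members called lower were 0 to 1, the 1 being Foxk1. The cause of these shifts was not tested. No paired analysis was possible because the labels give no replicate numbers that could pair arrays, apart from the shared time points used as a block.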
